A study of Mus musculus with 28 samples.

Results

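The 10 genes described here encode the 5 NF-kB subunits (Nfkb1, Nfkb2, Rel, Rela and Relb) and 5 feedback inhibitors of the pathway (Nfkbia, Nfkbid, Nfkbiz, Tnfaip3 and Bcl3). They were chosen by name as the rows of the expression table that carry these symbols, and all 10 were found among its 25124 genes. All 10 also passed the filter on low values, so none was lost before testing. The RNA came from CD4+ T cells of mouse small intestine, sorted out of the lamina propria.

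NF-kB proteins form dimers that are held in the cytoplasm by IkB proteins and enter the nucleus once a kinase complex marks those inhibitors for destruction. In T cells the route runs from the T cell receptor and CD28, or from receptors of the TNF family, to that kinase complex. Several of the inhibitors are themselves switched on by NF-kB, so their RNA is commonly read as a trace of recent pathway activity.

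All mice carried the T-bet-ZsGreen reporter, so no group lacked it. They were SPF (specific-pathogen-free, with a gut flora) or GF (germ-free, without one), and received aCD3, an antibody that binds CD3 beside the T cell receptor, or else a control antibody of the same isotype. Of the 28 libraries, 6 were SPF isotype and 6 were SPF aCD3, each with 3 of either sex. A further 10 were GF isotype, with 5 of either sex, and 6 were GF aCD3, with 1 from a female mouse and 5 from males. Replicates are named by F or M and a number. The sort kept live cells positive for CD45, CD90.2, TCRb and CD4, and the age of the mice, the dose and the time after injection were not used here. The labels name each library as a sample of its own but do not say that each came from a separate mouse, so p-values measure the spread between these libraries.

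Several properties of the whole libraries bear on the 10 genes. Reads in genes ranged from 6765526 to 17860806 per library, and no member had fewer than 155 reads in any library, where 3 reads is the floor used here. TPM gives a gene's share of a library, and histone genes took between 23.8% and 26.8% of summed TPM in SPF aCD3 but between 4.05% and 7.04% in SPF isotype. The median log2 fold change over all 12182 tested genes was -0.35 for aCD3 in SPF mice and -0.15 in GF mice, so members are also given after scaling by median of ratios, which brought those medians to -0.01 and -0.01. CD4 T cell markers (6 of 7 listed genes in the table) summed to between 1478 and 1975 TPM in every group. Within this sum Thy1 was lower in SPF aCD3 (385 to 488 TPM) than in SPF isotype (510 to 737 TPM). Cd3d was higher (200 to 224 against 139 to 178 TPM), and the other markers overlapped between these groups. The 6 GF aCD3 libraries stood apart from each other: Lag3, an inhibitory receptor, read 498, 452 and 527 TPM in M1, M2 and M5 but 9.59, 17.0 and 12.3 TPM in F1, M3 and M4. The 10 GF isotype libraries lay between 5.41 and 18.5 TPM for Lag3, so F1, M3 and M4 carry the aCD3 label with Lag3 within the isotype range. These 6 libraries are kept as 1 group throughout, as labelled.

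RefSeq promoters (build GRCm38.p6, 250 bases before to 50 bases after a start) were found for 7 of the 10 members, through 12 starts. The NF-kB site was searched by its kappaB consensus on both strands, with overlapping matches counted by position. It occurred in 8 of these 12 promoters and in 6 of the 7 genes, against 8.46% of the 32851 promoters of that length in the table. Rela was the gene with no match in any window. A match is a description of the letters and was not tested as a binding site. The promoters of 3 inhibitors that behaved differently below are shown, 5′ to 3′ on the gene's strand up to 30 bases after the start, with the matches in capitals: Bcl3 (chr7:19822726-19823005, minus strand), which rose, Nfkbid (chr7:30422156-30422435, plus strand), which fell, and Nfkbia (chr12:55492618-55492897, minus strand), which did not pass the test.
Bcl3: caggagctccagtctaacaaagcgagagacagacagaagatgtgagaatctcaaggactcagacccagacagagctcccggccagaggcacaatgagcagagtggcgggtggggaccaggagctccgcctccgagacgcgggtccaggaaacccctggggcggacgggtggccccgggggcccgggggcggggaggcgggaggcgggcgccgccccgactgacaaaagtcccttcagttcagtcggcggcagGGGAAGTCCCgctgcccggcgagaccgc
Nfkbid: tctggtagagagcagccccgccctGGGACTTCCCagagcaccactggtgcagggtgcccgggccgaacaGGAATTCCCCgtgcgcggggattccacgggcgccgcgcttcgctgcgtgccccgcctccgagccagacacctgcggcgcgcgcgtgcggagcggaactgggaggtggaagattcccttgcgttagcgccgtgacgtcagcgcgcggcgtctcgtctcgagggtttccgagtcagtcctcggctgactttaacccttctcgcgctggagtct
Nfkbia: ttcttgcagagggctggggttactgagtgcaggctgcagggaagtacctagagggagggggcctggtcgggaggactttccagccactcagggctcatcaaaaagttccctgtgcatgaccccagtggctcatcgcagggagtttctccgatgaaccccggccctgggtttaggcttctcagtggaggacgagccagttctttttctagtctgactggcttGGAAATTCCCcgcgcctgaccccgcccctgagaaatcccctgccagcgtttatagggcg

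The Bcl3 promoter held its single match, GGGAAGTCCC, at base 3 of the transcript, and the Nfkbia promoter held GGAAATTCCC from base -29. The Nfkbid start shown lies upstream of the start given in the expression table, and the windows at the other Nfkbid starts held no match. Rel held GGGAAATCCC from base -92 and an overlapping match from base -91. Nfkb2 held matches in the windows of all 3 of its starts. These windows overlap in part: GGGACTTTCC, from base -225 of the start in the expression table, is the same genomic site as the match at base 11 of the start before it, so it counts in 2 of the 8 promoters. Tnfaip3 held GGGACACCCC from base -125 and GGAAATCCCC from base -12 of an upstream start, and none at the start in the expression table.

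**Figure D1:**
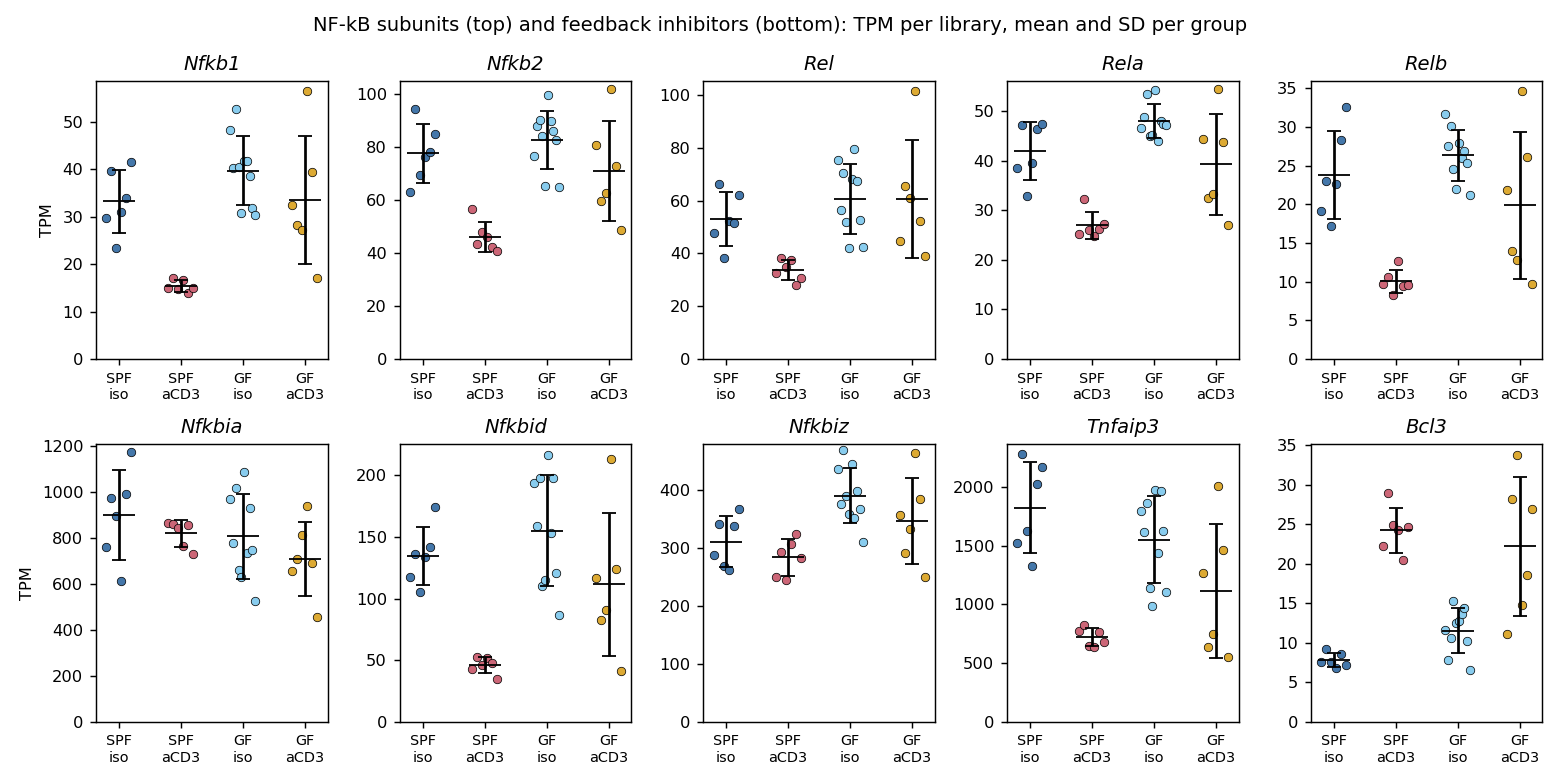
TPM of each gene in each of the 28 libraries (points), with the mean and SD of each group (bars); subunits are in the top row and feedback inhibitors in the bottom row, and each vertical axis starts at 0. In SPF mice the aCD3 points of all 5 subunits lie below the isotype points and those of Bcl3 lie above, while the GF aCD3 points are widely spread.

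In SPF mice, aCD3 was compared with isotype to ask how the pathway's own genes responded to engagement of the T cell receptor complex with a gut flora present. All 5 subunit RNAs fell as a share of the library, Nfkbid and Tnfaip3 fell further than any subunit, and Bcl3 rose. Nfkbia and Nfkbiz did not pass the test. Of the 10 genes, 8 were called by limma at an adjusted p below 0.05, 7 of them lower and 1 higher. Over all tested genes 64.8% were called, 50.7% lower and 14.2% higher, and the count of 8 is to be read against that. Every aCD3 library lay below every isotype library for the 7 genes that fell, as it did for 33.4% of tested genes, and above every isotype library for Bcl3, as it did for 8.57%.

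Nfkb1 encodes the precursor of the p50 subunit, and its row spans chr3:135584655-135691547 on the minus strand (NM_008689, build mm10). It ranged from 23.4 through a median of 32.6 to 41.5 TPM in SPF isotype and from 13.9 through 15.0 to 17.0 TPM in SPF aCD3. All 6 treated libraries lay below all 6 controls. Its log2 fold change was -1.04 ± 0.19 (SE), with a limma adjusted p of 5.3e-05. After scaling it was -0.65, with an adjusted p of 0.00043.

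Relb encodes the partner of p52 in the alternative branch of the pathway (NM_009046, chr7:19606222-19629438, minus strand). It ran from 17.2 through a median of 22.8 to 32.6 TPM in SPF isotype and from 8.22 through 9.63 to 12.7 TPM in SPF aCD3. The groups did not overlap, and Relb had the lowest log2 fold change of the subunits, -1.15 ± 0.21 (SE), with a limma adjusted p of 4.6e-05. It remained -0.76 after scaling, with an adjusted p of 0.00015.

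The other subunits moved less. Nfkb2, which encodes the precursor of p52 (NM_001177370, chr19:46305930-46312090, plus strand), ranged from 62.9 through a median of 77.2 to 94.6 TPM in SPF isotype and from 40.8 through 44.7 to 56.6 TPM in SPF aCD3. Its log2 fold change was -0.73 ± 0.14 (SE; limma adjusted p = 7.7e-05), and -0.33 after scaling (adjusted p = 0.013). The last 6 bases of the Nfkb2 row overlap Psd on the opposite strand, and no source used here states whether strand was used in counting.

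Rela encodes p65, the subunit with the activation domain in the most common dimer (NM_009045, chr19:5637541-5648134, plus strand). It ran from 32.98 through a median of 43.0 to 47.4 TPM in SPF isotype and from 24.8 through 26.2 to 32.3 TPM in SPF aCD3. The groups did not overlap, but their ranges nearly met. Its log2 fold change was -0.61 ± 0.12 (SE; limma adjusted p = 0.00015), and -0.21 after scaling (adjusted p = 0.023).

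Rel encodes c-Rel, a subunit prominent in lymphocytes (NM_009044, chr11:23736850-23770969, minus strand). Its levels ran from 38.2 through a median of 51.7 to 66.3 TPM in SPF isotype and from 28.2 through 33.7 to 38.1 TPM in SPF aCD3. The groups came within 1 TPM of each other without overlapping. Its log2 fold change was -0.62 ± 0.19 (SE; limma adjusted p = 0.0052). This call was lost after scaling, where the value was -0.22 (adjusted p = 0.27), and only 3 of 6 treated libraries then lay below all controls.

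Among the inhibitors, Nfkbid moved down furthest. It encodes IkBNS, a nuclear IkB that acts on gene promoters (NM_172142, chr7:30423275-30428746, plus strand). It ranged from 104.97 through a median of 135 to 174 TPM in SPF isotype and from 34.9 through 47.2 to 52.6 TPM in SPF aCD3. The highest treated library was below the lowest control. Its log2 fold change was -1.53 ± 0.27 (SE; limma adjusted p = 3.5e-05), lower than in all but 3.23% of tested genes, and -1.12 after scaling (adjusted p = 0.00022).

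Tnfaip3 encodes A20, a ubiquitin-editing enzyme that shuts off signalling upstream of the IkB kinases (NM_001166402, chr10:19000910-19011963, minus strand). It ranged from 1325 through a median of 1829 to 2283 TPM in SPF isotype and from 641 through 725 to 823 TPM in SPF aCD3. Groups were far apart. The log2 fold change was -1.32 ± 0.25 (SE; limma adjusted p = 8.1e-05), and -0.90 after scaling (adjusted p = 0.00085).

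Bcl3 moved the other way. It encodes an atypical nuclear IkB that binds dimers of p50 or p52 (NM_033601, chr7:19808462-19822755, minus strand). Bcl3 ranged from 6.77 through a median of 7.60 to 9.18 TPM in SPF isotype and from 20.6 through 24.5 to 28.99 TPM in SPF aCD3. Each treated library held more than 2 times the level of the highest control. The mean rose from 7.82 ± 0.893 TPM (SD, n = 6) to 24.3 ± 2.85 TPM (SD, n = 6). The log2 fold change was 1.52 ± 0.20 (SE; limma adjusted p = 3.9e-06), above 97.2% of tested genes, and 1.91 after scaling (adjusted p = 1.7e-06).

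Nfkbia and Nfkbiz overlapped between the groups. Nfkbia, which encodes IkB alpha, the classical cytoplasmic inhibitor (NM_010907, chr12:55489409-55492647, minus strand), ranged from 612 through a median of 932 to 1172 TPM in SPF isotype and from 729 through 848 to 863 TPM in SPF aCD3. All 6 treated libraries lay inside the control range, and the log2 fold change was -0.11 ± 0.18 (SE; limma adjusted p = 0.60). After scaling it was 0.31 (adjusted p = 0.15), so its sign depends on the scaling.

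Nfkbiz encodes IkB zeta, a nuclear IkB needed for a second wave of target genes (NM_001159394, chr16:55811377-55822138, minus strand). It ranged from 261 through a median of 313 to 367 TPM in SPF isotype and from 245 through 288 to 325 TPM in SPF aCD3. Only 2 of 6 treated libraries lay below all controls. The log2 fold change was -0.13 ± 0.13 (SE; limma adjusted p = 0.39). It reversed to 0.29 and was called after scaling (adjusted p = 0.021), where 4 of 6 treated libraries lay above all controls.

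The scaling therefore decided the call for Rel and Nfkbiz, while 7 genes kept both call and direction: Nfkb1, Nfkb2, Rela, Relb, Nfkbid and Tnfaip3 lower, and Bcl3 higher. After scaling, 8 members were called, 2 higher and 6 lower, against 30.2% of tested genes called higher and 29.8% called lower. Leaving out any 1 of the 28 libraries changed none of the 8 calls made on deposited TPM.

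**Figure D2:**
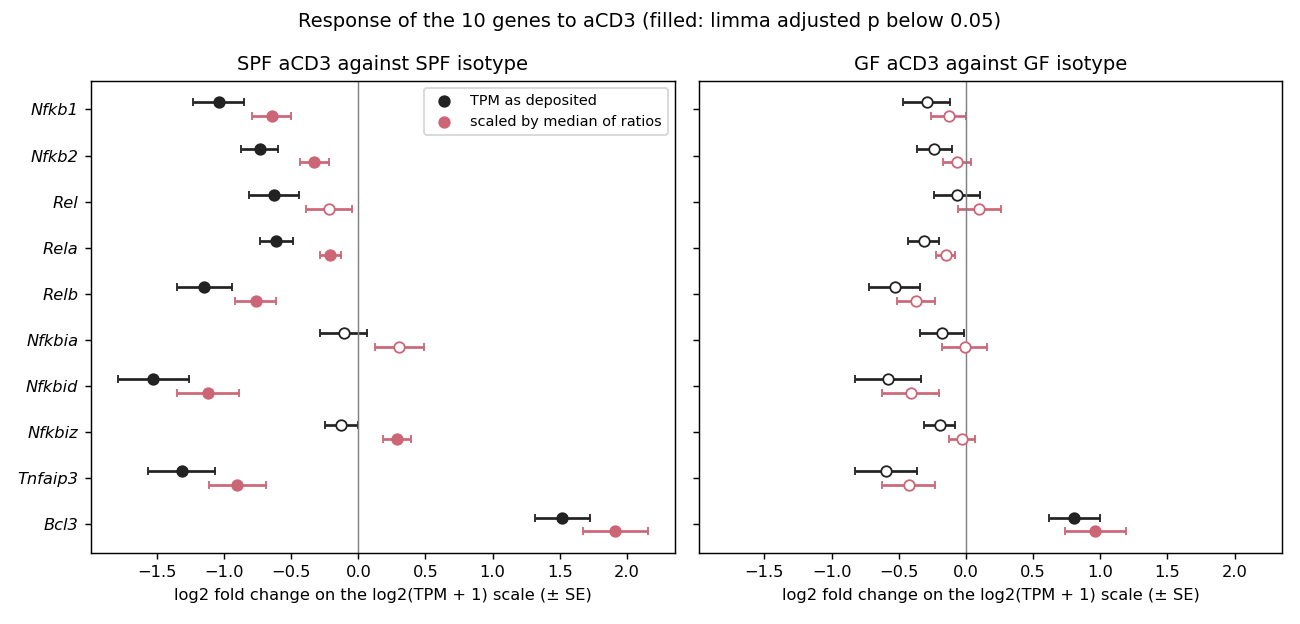
Log2 fold change (± SE) of each gene for aCD3 against isotype in SPF mice (left) and GF mice (right), from deposited TPM (black) and after scaling by median of ratios (red); filled points passed a limma adjusted p of 0.05. Bcl3 stands alone to the right in both panels, at 1.52 in SPF and 0.81 in GF on deposited TPM, and Nfkbid, Tnfaip3 and Relb are among the lowest in both.

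Ratios between 2 members of the same library do not depend on any scaling of that library, and they were chosen after the values had been seen. The ratio of Bcl3 to Nfkbid TPM was 0.0594 ± 0.0115 (SD, n = 6) in SPF isotype and 0.537 ± 0.0959 (SD, n = 6) in SPF aCD3. The lowest ratio in SPF aCD3, 0.429, exceeded the highest in SPF isotype, 0.0722. Bcl3 lay above and Nfkbid below every control, so this gap was fixed in advance and is no further result. Ratios of other gene pairs were not computed as a background. The ratio of Rel to Rela stayed at 1.26 ± 0.111 (SD, n = 6) in SPF isotype and 1.25 ± 0.160 (SD, n = 6) in SPF aCD3, a difference smaller than the spread between libraries. Nfkb1 to Rela was 0.786 ± 0.0631 and 0.574 ± 0.0553 (SD, n = 6 each), and these ranges did not overlap. TPM was divided by each gene's whole span with introns, so such a ratio compares groups and says nothing about which RNA was more abundant.

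Other cell types and handling genes also moved with aCD3 in SPF mice. The list of 19 immediate early and tissue dissociation genes, which respond to handling as well as to recent activation, summed to between 27138 and 37708 TPM in SPF isotype and between 7716 and 9448 TPM in SPF aCD3. Of these 19 genes, 15 fell and 0 rose, against 50.7% and 14.2% of all tested genes. Their median log2 fold change was -1.88, against -0.35 for all tested genes. After scaling, 13 fell and 1 rose, against 29.8% and 30.2%. Hspa1a, an inducible heat shock chaperone, fell by 3.73 on the log2 scale, and its near-identical copy Hspa1b fell by 3.55, so reads may be split between them. The 6 B and plasma cell markers summed to between 95.7 and 272 TPM in SPF isotype and between 2.51 and 8.77 TPM in SPF aCD3. In SPF isotype most of this was Jchain, with a median of 171 TPM. In SPF aCD3 the median of Jchain was 0.72 TPM, and Cd79b had the highest median of the list, 4.92 TPM, against 6.65 TPM in SPF isotype. Ms4a1, which marks B cells, did not exceed 0.522 TPM in either group. The 8 myeloid markers ran from 2.01 to 15.2 TPM and from 57.2 to 147 TPM in the same groups, with Adgre1, a macrophage marker, at or below 0.061 TPM. Cd68, a lysosomal protein, carried most of this sum, with a median of 7.15 TPM in SPF isotype and 77.1 TPM in SPF aCD3, and S100a8 reached 65.5 TPM in 1 or more SPF aCD3 libraries around a median of 0. Other markers of the list had lower medians in SPF aCD3, among them H2-Aa (3.05 and 0.395 TPM), Csf1r (0.215 and 0.089 TPM) and Lyz2 (0.78 and 0.058 TPM), while Itgam had a slightly higher one (0.0905 and 0.122 TPM) and S100a9 reached 25.6 TPM around a median of 0. The 3 endothelial markers summed to between 7.48 and 11.2 TPM in SPF isotype and between 2.53 and 3.89 TPM in SPF aCD3, nearly all of it Pecam1, with Kdr and Cdh5 at or below 0.14 TPM. The 2 CD8 T cell markers summed to between 5.68 and 13.5 TPM and between 9.75 and 23.8 TPM in the same groups, which overlapped. The 4 erythroid markers summed to 0 TPM in every SPF aCD3 library and the 5 stromal ones to at most 0.58 TPM, against 1.48 to 8.90 TPM and 3.67 to 31.8 TPM in SPF isotype. The part of these in the changes of the 10 genes was not tested. In bulk RNA, fewer cells of a kind and less RNA per cell cannot be told apart.

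In GF mice the same comparison was made without a gut flora. Bcl3 was the only member called, and it rose; 0 members were called lower. Over all tested genes 7.08% were called, 2.46% higher and 4.61% lower. Bcl3 ranged from 6.55 through a median of 12.1 to 15.3 TPM in GF isotype and from 11.1 through 22.8 to 33.9 TPM in GF aCD3. The 6 treated libraries read 11.1 TPM in F1, 28.3 in M1, 33.9 in M2, 14.7 in M3, 18.6 in M4 and 26.95 in M5. F1 and M3 lay inside the isotype range, and 4 of 6 lay above all 10 controls. The log2 fold change was 0.81 ± 0.19 (SE; limma adjusted p = 0.048), and 0.96 after scaling (adjusted p = 0.040).

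That call sat at the edge of the threshold. It was lost in fits on GF libraries alone, with or without the runs of column numbers described below as a covariate. Bcl3 kept a positive value when any 1 of the 28 libraries was left out, from 0.68 to 1.04, with adjusted p from 0.0028 to 0.18. Without any 1 of 25 libraries limma called no member and no other gene, so the 7.08% over all genes moved with the same libraries. Without GF aCD3 F1 the count was 4 (Bcl3 higher; Rela, Relb and Tnfaip3 lower), without M4 it was 4 with the same genes, and without M3 it was 7, adding Nfkb1, Nfkb2 and Nfkbid lower. In these fits 29.8%, 31.7% and 34.6% of all tested genes were called. M3 was also the library with the highest sum of 7 pancreatic acinar markers, 506 TPM, where the other 5 of its group read from 2.11 to 91.3 TPM. The part of that signal in its values was not tested.

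The other 9 members had log2 fold changes from -0.59 to -0.07 in GF mice, with limma adjusted p from 0.066 to 0.80. Counting Bcl3, 5 of the 10 had an unadjusted p under 0.05, as had 35.7% of all tested genes. Tnfaip3 had the lowest value, -0.59 ± 0.23 (SE; limma adjusted p = 0.078). Its treated libraries read 1264 TPM in F1, 636 in M1, 746 in M2, 2010 in M3, 1462 in M4 and 548 in M5, against 984 to 1976 TPM in GF isotype. M1, M2 and M5 lay below all 10 controls and M3 above them. Nfkbid read 117, 82.5, 91.0, 214, 124 and 41.1 TPM in F1, M1, M2, M3, M4 and M5, against 86.6 to 217 TPM in GF isotype. M1 and M5 were below all controls, and the others within their range. Its log2 fold change was -0.58 ± 0.25 (SE; limma adjusted p = 0.098).

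The subunits showed the same spread among GF aCD3 libraries. Relb read 21.8, 14.0, 12.8, 34.6, 26.2 and 9.75 TPM in F1, M1, M2, M3, M4 and M5, against 21.2 to 31.6 TPM in GF isotype. M1, M2 and M5 were below all controls and M3 above. Nfkb1 read 32.6, 28.2, 27.3, 56.5, 39.5 and 17.1 TPM in the same order, against 30.4 to 52.8 TPM. Again M1, M2 and M5 fell below the control range and M3 lay above it. Rel did not follow: it read 44.6, 65.6, 61.0, 102, 52.3 and 39.0 TPM, against 41.9 to 79.4 TPM, and M5 alone was below all controls and M3 alone above. Within GF aCD3 the coefficient of variation was 40.01% for Nfkb1, 47.7% for Relb, 52.02% for Nfkbid, 51.4% for Tnfaip3 and 22.8% for Nfkbia. In SPF aCD3 the same genes had 7.77%, 15.1%, 14.2%, 10.5% and 7.01%. In GF isotype they had 18.4%, 12.4%, 29.2%, 23.8% and 22.9%, and in SPF isotype 20.1%, 24.1%, 17.6%, 21.2% and 21.6%. Nfkbia therefore varied as much under isotype as in GF aCD3, while the other 4 had their highest value in GF aCD3.

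**Figure D3:**
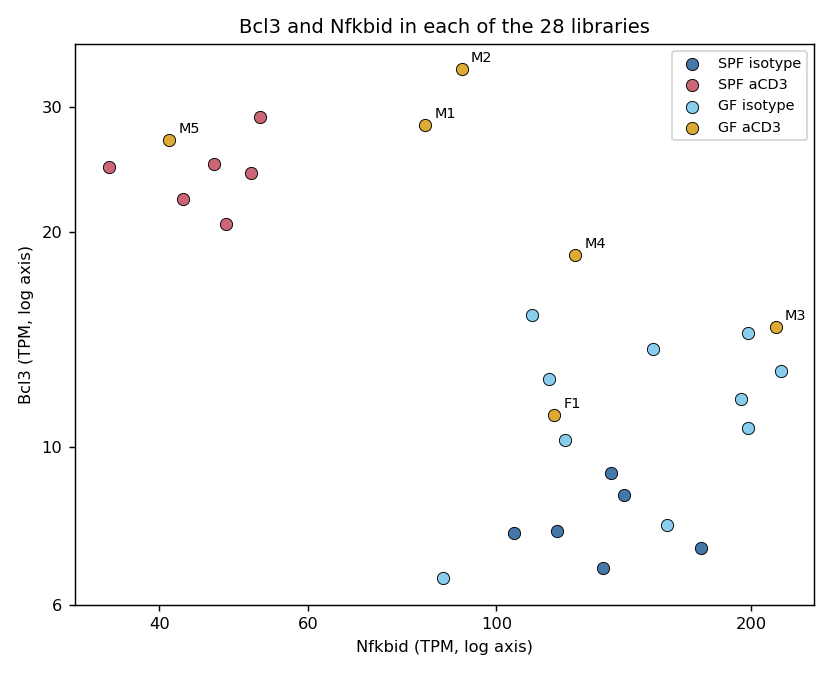
Bcl3 against Nfkbid TPM in each of the 28 libraries, both on log axes, coloured by group, with the replicate names of the 6 GF aCD3 libraries. The SPF aCD3 libraries sit at upper left and the isotype libraries at lower right, and the GF aCD3 libraries run from M5 at the left to M3 at the right.

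The ratio of Bcl3 to Nfkbid showed this per library. It was 0.0792 ± 0.0278 (SD, n = 10) in GF isotype, with 0.139 as its highest value. In GF aCD3 it was 0.0945 in F1, 0.343 in M1, 0.372 in M2, 0.0690 in M3, 0.1499 in M4 and 0.655 in M5. F1 and M3 lay within the isotype range, M4 was just above it, and M5 alone reached the range of SPF aCD3, 0.429 to 0.709. The summed immediate early and dissociation genes read 14852, 11932, 11658, 25196, 17176 and 6808 TPM in F1, M1, M2, M3, M4 and M5, so the library with the lowest sum also had the highest ratio. Lag3 also divided the ratios: M1, M2 and M5, with 452 to 527 TPM of Lag3, had 0.343 to 0.655. F1, M3 and M4, with 9.59 to 17.0 TPM, had 0.0690 to 0.1499. What went into the ratio was not tested for either.

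Under isotype, GF and SPF mice were compared to ask whether the flora alone went with other levels of the 10 genes. Limma called 0 of 10, against 7.17% of tested genes, and 2 had an unadjusted p under 0.05, as had 25.5% of tested genes. The fit on whole reads recovered from TPM also called 0, against 1.85% of tested genes. Nfkbiz had a log2 fold change of 0.33 ± 0.11 (SE; adjusted p = 0.071), from a median of 313 TPM in SPF isotype to 383 TPM in GF isotype, with 6 of 10 GF libraries above all SPF libraries. Bcl3 had 0.48 ± 0.18 (SE; limma adjusted p = 0.11), with 8 of 10 GF libraries above and 1 below all SPF libraries. Nfkbiz was called without GF aCD3 M3 or M5, where 9.33% and 8.57% of all tested genes were called, and Nfkbiz and Bcl3 without GF isotype M5, where 6.61% were. The remaining 8 genes had values from -0.25 for Tnfaip3 to 0.25 for Nfkb1. Summed immediate early and dissociation genes did not overlap, at 27138 to 37708 TPM in SPF isotype and 11754 to 26386 TPM in GF isotype. Of these 19 genes, 5 were called lower in GF mice and 0 higher. Stromal sums (3.67 to 31.8 and 0.373 to 2.38 TPM) and erythroid sums (1.482 to 8.90 and 0 to 1.47 TPM) also stayed apart. Sums of the other cell types overlapped. The part of these in the comparison was not tested. Numbers in the column names run from 1 to 12 for SPF libraries and from 25 to 33 and 48 to 54 for GF libraries, so the flora and any difference between those runs of numbers cannot be told apart.

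Under aCD3, GF mice had more RNA of 6 members than SPF mice on deposited TPM, where limma called 48.9% of tested genes higher. This comparison shares its SPF aCD3 libraries with the one within SPF mice. Nfkbid was higher by 1.11 ± 0.27 (SE; adjusted p = 0.0023), Nfkb1 by 1.00 ± 0.19 (adjusted p = 0.00058), Relb by 0.78 ± 0.21 (adjusted p = 0.0042), Rel by 0.74 ± 0.19 (adjusted p = 0.0031), Nfkb2 by 0.59 ± 0.14 (adjusted p = 0.0020) and Rela by 0.49 ± 0.13 (adjusted p = 0.0029) on the log2 scale. For Nfkb1 and Rel every GF library lay above every SPF library, as for 12.2% of tested genes. Only M5 of the GF libraries came within the SPF range for Nfkb2, Rela, Relb and Nfkbid. The summed immediate early and dissociation genes split the same libraries: M5 read 6808 TPM and the other 5 GF libraries from 11658 to 25196 TPM, against 7716 to 9448 TPM in SPF aCD3. Median Cd68 was 77.1 TPM in SPF aCD3 and 28.7 TPM in GF aCD3, median Jchain 0.72 and 9.01 TPM, and the median acinar sum 2.39 and 29.1 TPM. Other markers of these lists did not all go the same way. H2-Aa (0.395 and 0.804 TPM), Csf1r (0.089 and 0.1595 TPM), Lyz2 (0.0575 and 0.234 TPM) and Adgre1 had higher medians in GF aCD3. Itgam had a lower one (0.122 and 0.076 TPM). Median Cd79b was 4.92 and 5.50 TPM, and median Mzb1 was 0 TPM in both groups. Their part in the differences was not tested. Without M5, Nfkbiz and Tnfaip3 were called higher as well, which made 8, and 59.4% of all tested genes were called in either direction.

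Of those 6 calls, 2 held after scaling by median of ratios, for Nfkb1 and Nfkbid. The 3 members called were then Nfkb1 higher by 0.61 (limma adjusted p = 0.0044), Nfkbid higher by 0.70 (adjusted p = 0.026) and Nfkbia with a value of -0.64 (adjusted p = 0.013). Of all tested genes, 16.0% were then called higher and 16.7% lower. Voom on recovered reads called 5 members: Nfkb1, Relb and Nfkbid higher, and Nfkbia and Bcl3 lower, against 17.2% of all tested genes higher and 18.7% lower. Bcl3 had -0.23 ± 0.21 on deposited TPM (SE; limma adjusted p = 0.35), -0.62 after scaling (adjusted p = 0.058) and -0.71 with voom (adjusted p = 0.033), so its call depends on the method. Nfkbia ranged from 453 through a median of 698 to 935 TPM in GF aCD3 and from 729 through 848 to 863 TPM in SPF aCD3. On deposited TPM, 4 of 6 GF libraries lay below and 1 above all SPF libraries, and the log2 fold change was -0.23 ± 0.18 (SE; adjusted p = 0.28).

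Whether the response to aCD3 itself differed between GF and SPF mice was tested as an interaction. Limma called 0 of 10, against 3.48% of tested genes, and 7 had an unadjusted p under 0.05, as had 32.1% of tested genes. The fit on recovered reads also called 0, against 15.0% of tested genes, with 4 under 0.05 unadjusted, as were 34.6% of genes. After scaling 0 were called, against 11.3% of tested genes. On deposited TPM Nfkb1 came closest, with a difference of 0.75 ± 0.26 (SE; limma adjusted p = 0.070), from -1.04 in SPF to -0.29 in GF. For Bcl3 the difference was -0.71 ± 0.28 (SE; adjusted p = 0.093), from 1.52 in SPF to 0.81 in GF. For Nfkbid it was 0.95 ± 0.36 (SE; adjusted p = 0.089). Of the 19 immediate early and dissociation genes, 9 were called higher in this interaction and 0 lower, and 10 and 0 after scaling. Their part in the differences of the members was not tested. The count changed with single libraries: without GF aCD3 M5, 7 members were called (Nfkb1, Nfkb2, Rel, Relb, Nfkbid and Tnfaip3 higher, Bcl3 lower), where 26.2% of all tested genes were called. Without M2, Nfkb1 and Bcl3 were called, beside 20.4% of all tested genes. Nfkb1 alone was called without M1, where 16.8% of all tested genes were, and without SPF isotype F3, where 17.0% were.

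The 10 GF isotype libraries, the largest group, show how the members varied together in mice given the control antibody. Pearson's r on log2(TPM + 1) was positive for 44 of 45 pairs, with a median of 0.716, and 23 pairs were called at an adjusted permutation p under 0.05, all positive. Over all pairs of tested genes in the same libraries the median r was 0.058 and 55.3% were positive. An r of 0.716 or more, the lowest called, was reached by 23 of the 45 member pairs and 3.2% of all pairs, and pairs that share a gene are not independent. After scaling, 31 member pairs were called and the median r over the 45 pairs was 0.774. Of all pairs of tested genes, 50.0% were then positive and 3.4% reached 0.674, the lowest r called. Nfkbia and Nfkbid had the highest value, r = 0.967 and Spearman's rho = 0.939 (permutation p = 1e-05, the smallest that 100000 resamples can give, and p = 0.00021, adjusted p = 0.00045 and 0.0036 over 45 pairs). It was 0.936 without the 2 libraries farthest from the median of Nfkbia. Nfkbia and Tnfaip3 had r = 0.910 and rho = 0.939 (permutation p = 0.00014 and 0.00017, adjusted p = 0.0031 and 0.0036), and r = 0.904 without 2 libraries. None of the 9 pairs with Bcl3 was called, and its r ran down to -0.188 with Rela.

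The numbers in the column names split these 10 libraries. The 6 libraries with numbers 25 to 30 and the 4 with numbers 48 to 51 did not overlap for Rel (56.4 to 79.4 against 41.9 to 52.8 TPM), Relb (26.04 to 31.6 against 21.2 to 25.3 TPM) or Nfkbid (153 to 217 against 86.6 to 120 TPM), and the later numbers were lower. Such a lack of overlap in that direction was found for 4.53% of tested genes. Bcl3 overlapped, at 7.77 to 14.5 and 6.55 to 15.3 TPM. Summed immediate early and dissociation genes read from 18858 to 26386 TPM and from 11754 to 20235 TPM. Within the 6 libraries the median r over the 45 pairs was 0.295 and 36 pairs were positive, and after scaling these were 0.412 and 42. The part of the number runs in the correlations was not tested. Nfkbia and Nfkbid kept r = 0.980 there, Nfkbia and Tnfaip3 0.903, and Nfkb2 and Relb had -0.509, on deposited TPM. The 4 libraries were too few for a correlation.

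The other genes of the pathway were taken from lists, whose counts are to be read against the shares over all tested genes: in SPF mice 50.7% lower and 14.2% higher, or 29.8% and 30.2% after scaling. In GF mice these shares were 4.61% lower and 2.46% higher, or 4.02% and 5.62% after scaling. Each GF call below on deposited TPM was made on all 28 libraries together and was lost without any 1 of 25 of them; calls after scaling were not run that way. Upstream, 18 ligands and receptors were listed and 13 tested: in SPF mice 3 rose and 7 fell, and in GF mice 1 rose and 2 fell. Cd40lg, the ligand of CD40 on activated T cells, fell from 222 ± 34.6 TPM to 29.2 ± 3.29 TPM (SD, n = 6 each; log2 fold change -2.88, limma adjusted p = 2.6e-06), and in GF mice by 1.18 (adjusted p = 0.048). Tnf, named after its value was seen, was the other called in GF mice, where it fell by 0.50 (adjusted p = 0.0499), a call lost after scaling at -0.33 (adjusted p = 0.070). Il18r1, a chain of the IL-18 receptor, had -1.53 in SPF (adjusted p = 8.4e-06) and -0.66 in GF (adjusted p = 0.052). The costimulatory receptors Tnfrsf4 (OX40) and Tnfrsf9 (4-1BB) rose in SPF mice, by 2.62 (adjusted p = 6.2e-06) and 1.55 (adjusted p = 9.7e-05), and had 1.05 (adjusted p = 0.056) and 0.91 (adjusted p = 0.049) in GF mice.

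On the route from the T cell receptor, 5 of 6 genes fell in SPF mice and none was called in GF mice, where 5 of 6 had an unadjusted p under 0.05, against 35.7% of all tested genes. After scaling, 1 of the 6 was lower in SPF mice. Prkcq, which encodes protein kinase C theta, had -0.58 (limma adjusted p = 0.0088) and lost its call after scaling, at -0.20 (adjusted p = 0.20).

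Of 20 kinases of IkB and their activators, 2 rose and 11 fell in SPF mice, and 7 rose and 6 fell after scaling, shares close to those over all tested genes. In GF mice 0 rose and 1 fell, also after scaling. Map3k14, the NF-kB inducing kinase of the alternative branch, fell from 14.9 ± 3.23 TPM to 2.33 ± 0.416 TPM (SD, n = 6 each; log2 fold change -2.24, limma adjusted p = 6.2e-06). Tab2, an adaptor of the kinase TAK1, fell by 0.98 (adjusted p = 1.8e-05). Myd88 and Irak1, which carry signals of Toll-like and IL-1 receptors, rose by 0.72 (adjusted p = 2.3e-06) and 0.34 (adjusted p = 0.0024). In GF mice these 4 genes were not called, with values of -0.86, -0.40, 0.20 and 0.15 in that order. The gene that fell there was Tab3, at -0.44 (adjusted p = 0.048), named after its value was seen.

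The 21 further inhibitors and brakes had a median log2 fold change of -0.56 in SPF mice, where 1 rose and 15 fell, and 3 rose and 10 fell after scaling. In GF mice 1 rose and 4 fell, and 1 rose and 5 fell after scaling. Zc3h12a (Regnase-1), an RNase that degrades cytokine messengers, fell by 1.33 in SPF (limma adjusted p = 4.0e-05) and by 0.72 in GF (adjusted p = 0.049). Birc3, the ubiquitin ligase cIAP2, had -1.31 in SPF (adjusted p = 5.1e-06) and -0.52 in GF (adjusted p = 0.054), where it was called after scaling at -0.36 (adjusted p = 0.046). Tnip3, a partner of A20, was the gene that rose, from 0.197 ± 0.0966 TPM to 7.18 ± 0.981 TPM in SPF (SD, n = 6 each; log2 fold change 2.77, adjusted p = 5.5e-06), and was also the gene that rose in GF, by 1.23 (adjusted p = 0.048). The other GF calls, named after their values were seen, were Rnf11 at -0.48, Birc2 at -0.53 and Commd1 at -0.62 (adjusted p = 0.048, 0.0496 and 0.048).

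Of 28 known target genes outside these lists, 7 rose and 11 fell in SPF mice, 10 rose and 8 fell after scaling, and in GF mice 0 rose and 3 fell, or 1 and 3 after scaling. Their median log2 fold change in SPF mice was -0.19, against -0.35 for all tested genes. The chemokines Ccl3 and Ccl4 had the highest values, 3.56 and 3.27 (limma adjusted p = 5.2e-05 and 9.7e-06), and the cytokine Il2 and the chemokine Cxcl10 the lowest, -3.74 and -1.50 (adjusted p = 3.5e-06 and 0.00031). In GF mice the 4 had 1.72, 1.27, -1.44 and -0.52 and none was called. The GF calls, named after their values were seen, were Icam1 at -0.56 (adjusted p = 0.049), Irf1 at -0.58 (adjusted p = 0.048) and Sod2 at -0.46 (adjusted p = 0.0496). After scaling Icam1 was lost at -0.40 (adjusted p = 0.054), Il2 was called at -1.32 (adjusted p = 0.049), and Bcl2a1d was called at 0.28 (adjusted p = 0.040). Targets moved in both directions in SPF mice.

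**Figure D4:**
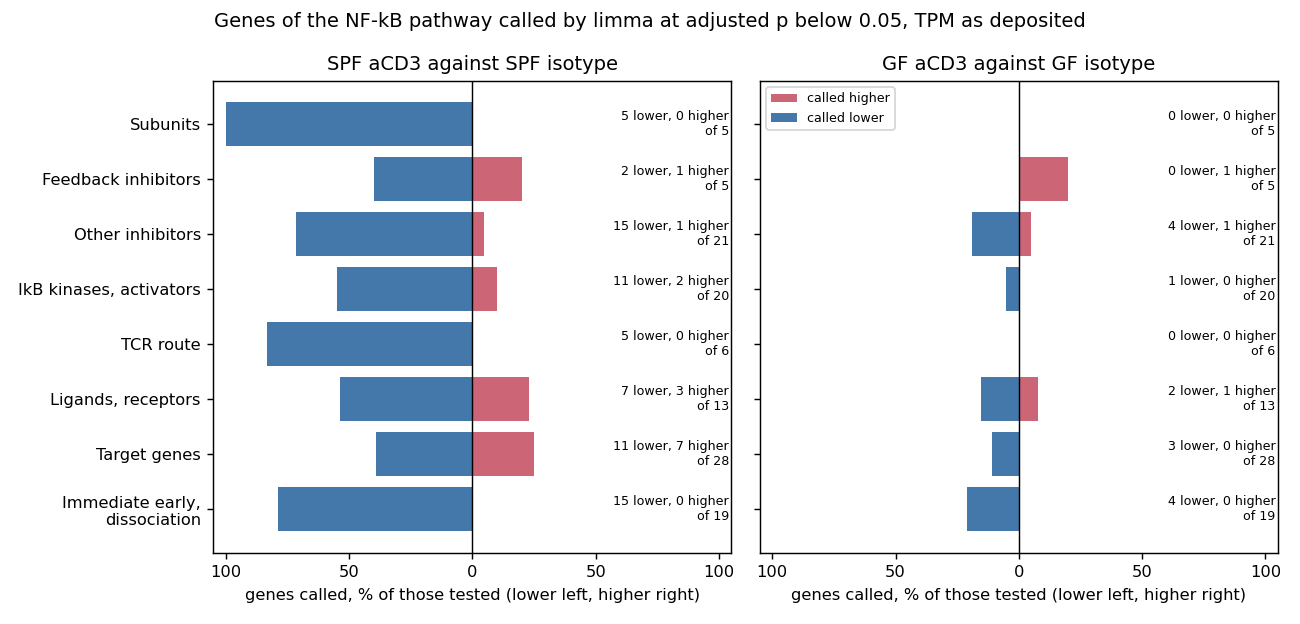
Share of tested genes in each list that limma called higher (right of 0) or lower (left of 0) for aCD3 against isotype, in SPF mice (left panel) and GF mice (right panel), with the counts printed. In SPF mice all 5 subunits and 15 of 19 immediate early and dissociation genes are on the lower side, and in GF mice few genes of any list were called. Over all tested genes 50.7% were called lower in SPF mice and 4.61% in GF mice.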

How the data were processed

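The deposited table gives TPM per gene. Per the file headers, the authors made these TPM values with HOMER analyzeRepeats.pl on RefSeq transcripts of mm10, condensing the transcripts of a gene. The aligner is not given in the sources used here. In 99.24% of rows the length equals the genomic span with introns, so levels were not compared between genes. The labels name a total RNA kit and also polyA RNA, and which holds was not settled. In the table, 26 columns match no sample and were not used.

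A gene was tested if 6 or more libraries reached 1 TPM (12182 genes). Limma 3.58.1 under R 4.3.3 was fitted to log2(TPM + 1) over all 28 libraries, with group means, sex as a covariate and a variance trend. Log2 fold changes are on that scale, which understates low genes. Within each of 5 comparisons, Benjamini-Hochberg adjustment ran over every tested gene, and calls were made under 0.05. Whole reads were recovered from TPM times length: 100.0% of low values came out whole within 0.1 of a read. Voom on these reads called 7206 genes for aCD3 in SPF mice and 942 in GF mice. Correlations used 100000 permutations in Python 3.11.15 with NumPy 2.4.6, SciPy 1.17.1 and pandas 2.3.3. Floors of 3 reads (0.123 to 0.323 TPM for a gene of 10 kb) cover counting error only. The limma step was tested on simulated data.

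Named genes were the 10 members and, from each list, up to 2 called genes at either end of the SPF fold changes; a few others are marked as named after their values were seen. A gene that this rule names is not reported here. The members and lists were chosen with earlier results of these data known. Alternatives were pseudocounts of 0.1 and 5, other low-value filters, scaling by median of ratios, removal of Rn45s and histone genes, voom, array weights, a replicate block, fits on the compared groups alone, no sex term, the number runs in GF mice, and leaving out each library.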

Additional observations from a re-analysis of the deposited data

Results flagged for a closer look

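Rela in SPF aCD3 replicate F2 read 32.3 TPM, where the other 5 libraries of its group ran from 24.8 to 27.3 TPM. The gap to the nearest library was 0.673 of the group's range. This was the single value that stood apart among 40 sets of member and group, and chance flags about 1 in 20 sets, which makes 2 expected. All 6 SPF aCD3 libraries, F2 included, lay below all SPF isotype libraries for Rela.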

How the results depend on the processing

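For aCD3 in SPF mice the number of members called stayed within 1.5 times of 8 under every alternative run, and Nfkbiz reversed to 0.29 after scaling by median of ratios and to 0.29 with voom on recovered reads. For aCD3 in GF mice the count of 1 became 0 with a pseudocount of 0.1, with no low-value filter, with the replicate block, with only the compared groups, with the number run as a covariate and in the runs of numbers 25-33 and 48-54 alone; 5 with array weights, where 29.8% of all genes were called; and 3 with no sex term, where 20.3% were. In the first 5 of those settings limma called 0 of all tested genes in that comparison; with the replicate block Bcl3 had 0.91 (adjusted p = 0.063). Leaving out 1 library gave 0 to 7 there, 0 to 2 for GF against SPF isotype and 0 to 7 for the interaction. GF against SPF isotype went from 0 to 1 without Rn45s and histone genes, 2 with array weights, 1 with the replicate block and 2 with only the compared groups, where 19.6%, 15.6%, 5.40% and 14.9% of all genes were called. GF against SPF aCD3 went from 6 to 3 after scaling and to 5 with voom. Of single fold changes under settings other than leaving out a library, 517 kept direction and call, 17 lost the call, 17 gained it, 17 changed sign without a call and 2 reversed. Causes were not tested. The labels do not say whether shared replicate names pair libraries. Same-named deviations from the group means correlated from -0.031 to 0.103 in SPF and from -0.208 to 0.198 in GF mice, which cannot settle it. The replicate block gave 8 for GF against SPF aCD3, where 46.9% of all genes were called. Libraries were not thinned to a common depth; each member had at least 155 reads in each.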
